A study of Mus musculus with 24 samples.

Results

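Splenic kTreg cells of young mice were compared with aTreg cells of young mice, gene by gene and paired by mouse number. The members were the 14439 genes, of 17464 listed, whose value reached 10 in at least 4 of the 8 libraries of this comparison. The 4 young mice were 2 months old and the 4 old mice 26 months, all WT C57BL/6JRccHsd and without a treatment in the labels. kTreg cells were sorted by fluorescence as KLRG1+ Treg cells with no CD62L or CD44 gate in the labels, aTreg cells as CD62L- CD44+ and resting rTreg cells as CD62L+ CD44- Treg cells. The series held 24 libraries in 6 groups of 4, 1 for each subset and mouse, and kTreg and aTreg libraries with the same number were taken as 1 mouse, which the labels do not state outright. Values are normalized read counts, the reads of a gene divided by a size factor for the library, and 1 read was worth between 0.804 and 1.31 units.

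Treg cells are CD4+ T cells that hold immune responses in check and depend on the transcription factor FOXP3. After contact with antigen they lose homing receptors of the lymph node, take up receptors for tissues and can acquire an effector state that draws on BLIMP1, GATA3 and the IL-33 receptor ST2. KLRG1 is an inhibitory lectin-like receptor that binds cadherins and marks strongly differentiated T cells and NK cells.

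Between 15502851 and 23642676 reads lay on listed genes in the 8 libraries. The kTreg library of mouse 4 stood apart. It listed 4913 genes at 0, against 466 to 1241 in the other 7, and 2201 tested genes were at 0 there alone. Its rank correlation with the other 7 libraries lay between 0.861 and 0.892, and among those 7 it lay between 0.944 and 0.987. The difference between kTreg and aTreg cells had a standard deviation over genes of 0.92, 1.10 and 1.03 on the log2 scale in mice 1 to 3 and of 2.60 in mouse 4. Each count of calls in a gene group is therefore also given without mouse 4. Markers of other cells were present as well. The highest sums in all 8 libraries were those of the 10 B cell markers, led by *Ighm*, at 44611 to 60024 in kTreg and 41785 to 52656 in aTreg cells, so these ranges overlapped. The 11 macrophage and monocyte markers summed to 33650 in the kTreg library of mouse 2 and to 412 to 1266 in the other kTreg libraries, against 3291 in the aTreg library of mouse 2 and 94.4 to 257 in the other aTreg libraries. The 9 dendritic cell markers, led by *Cd74*, summed to 47797 and 40492 in the kTreg and aTreg libraries of mouse 2, to 10379 to 12139 in the other kTreg libraries and to 3646 to 5261 in the other aTreg libraries. The 7 erythroid markers summed to 3393 in the kTreg library of mouse 4 and to 1167 or less elsewhere. The part of these cells in the results was not tested.

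**Figure D1:**
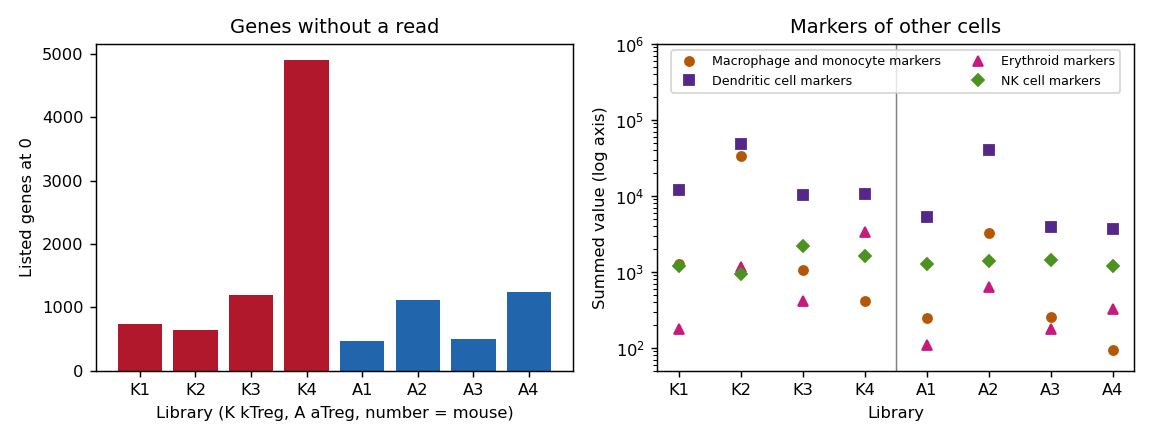
The left panel plots as bars the number of listed genes without a read in each of the 8 libraries (K, kTreg; A, aTreg; the number is the mouse), and the right panel plots on a log axis the summed normalized read count of 4 marker lists of other cells in the same libraries. The kTreg library of mouse 4 had 4913 genes at 0, and the macrophage and dendritic cell sums were highest in the libraries of mouse 2.

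The genes behind the sort matched the labels for KLRG1. *Klrg1* (ENSMUSG00000030114, GRCm39 chromosome 6, 122246981 to 122259914, minus strand) read 29643, 26704, 30737 and 41561 in the kTreg libraries of mice 1 to 4, and 177, 106, 108 and 109 in the aTreg libraries. The groups were far apart, at a log2 fold change of 8.01 (SE, the standard error, was 0.20, limma adjusted p = 0.00096), and KLRG1 was itself the gate, so this checks the label and is not a finding. *Foxp3* read 30375, 31601, 36395 and 24669 in kTreg and 20351, 24068, 24857 and 25465 in aTreg cells. Both groups carried the lineage factor at a high level and overlapped through mouse 4 (log2 fold change 0.37, limma adjusted p = 0.23). Without mouse 4 the limma adjusted p was 0.0026, with a log2 fold change of 0.51 that stayed under the fold threshold. *Cd4* lay between 10773 and 15335 in kTreg and between 11854 and 15638 in aTreg cells, with no called difference. *Il2ra*, which encodes the IL-2 receptor chain CD25, lay between 5231 and 7688 in kTreg and between 7549 and 9925 in aTreg cells (log2 fold change −0.37, limma adjusted p = 0.3). Of the aTreg gate, *Cd44* lay between 4859 and 6496 in kTreg and between 2932 and 4356 in aTreg cells. The groups did not overlap, but the difference was not called (log2 fold change 0.76, limma adjusted p = 0.075) unless mouse 4 was left out (log2 fold change 0.86, limma adjusted p = 0.003).

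Over all 14439 genes, 256 were called higher in kTreg cells (1.77%) and 91 lower (0.63%), or 347 in all (2.4%), in limma with the mouse as a term. A call needed more than a 1.5-fold change and an adjusted p under 0.05. Without mouse 4, 1192 genes were called higher (8.26%) and 929 lower (6.43%), and 342 of the 347 calls were shared. Without the pairing by mouse number, limma called 429 genes higher and 204 lower. Of the 256 and 91, 4 higher genes had every aTreg value under 10 and 9 lower genes had every kTreg value under 10, so they could enter the test only in the direction found. Without mouse 1, mouse 2 or mouse 3, *Klrg1* was the single call in each fit (limma adjusted p = 0.0036, 0.045 and 0.019), while 1245, 1458 and 1166 genes passed the fold threshold at an unadjusted p below 0.05. Each of these fits kept mouse 4, and why the other calls were lost was not tested. All 4 kTreg libraries lay above all 4 aTreg libraries for 1095 genes (7.58%) and below them for 1236 (8.56%). Over all genes the log2 fold change had a median of −0.11, or −0.02 without mouse 4. It lay above 0 for 41.1% of genes, or 48.3% without mouse 4. Counts in each gene group below are to be read against these shares over all genes. In bulk libraries, fewer cells that express a gene and less RNA of it per cell cannot be told apart. Strand is not given for the counting, and over 20% of the exonic bases of *Dennd2d*, *Ebi3*, *Lrig1*, *Rbl2* and *Ssbp2* lay over genes of the other strand, so that their levels are less certain.

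**Figure D2:**
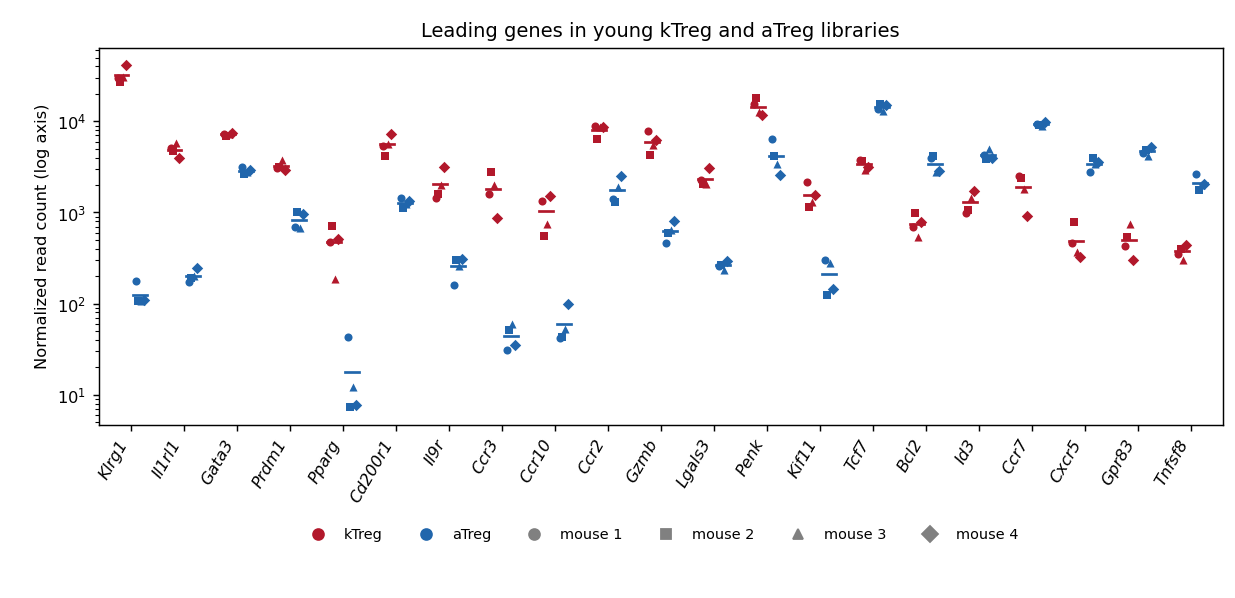
Normalized read counts on a log axis of 21 genes in the 4 kTreg (red) and 4 aTreg (blue) libraries of young mice, with a symbol for each mouse and a line at the mean of the group. From *Klrg1* to *Kif11* the kTreg libraries lie above the aTreg libraries, and from *Tcf7* to *Tnfsf8* below them.

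Genes of the effector and tissue Treg programme were called in 1 direction. Of 31 tested, 13 were called higher, against 1.77% of all genes, and none lower. Without mouse 4, 21 were called higher, against 8.26% of all genes, and none lower. The median log2 fold change was 0.89 (0.95 without mouse 4). *Klrg1*, the gate gene, is 1 of the 13. *Il1rl1* (ENSMUSG00000026069, GRCm39 chromosome 1, 40468730 to 40504575, plus strand), the gene of the IL-33 receptor ST2, read 5070, 4697, 5859 and 3991 in kTreg and 175, 192, 203 and 243 in aTreg cells. Every kTreg library was well above every aTreg library, 24.1 times on the means (log2 fold change 4.58, SE 0.18, limma adjusted p = 0.0058). Young rTreg cells averaged 157, close to aTreg cells. *Areg*, which encodes the tissue repair factor amphiregulin that ST2+ Treg cells are known to make, read 399, 230, 293 and 136 in kTreg and 132, 36.3, 96.5 and 27.7 in aTreg cells. The groups did not overlap, but *Areg* was not called (log2 fold change 2.02, limma adjusted p = 0.064) unless mouse 4 was left out (limma adjusted p = 0.0025). *Il10* read 938, 723 and 891 in the kTreg libraries of mice 1 to 3 and 236 in that of mouse 4, against 254, 261, 446 and 336 in aTreg cells. Mouse 4 alone went the other way, and the gene was called without it (log2 fold change 1.45, limma adjusted p = 0.0018) but not with it (log2 fold change 0.96, limma adjusted p = 0.32).

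Several transcription factors of differentiated Treg cells were higher. *Gata3*, which drives type 2 programmes and is used by tissue Treg cells, read 7356, 6975, 7294 and 7434 in kTreg and 3146, 2647, 2809 and 2894 in aTreg cells. Both groups were tight, with means of 7265 ± 202 and 2874 ± 208 (SD, n = 4), and the log2 fold change was 1.34 (SE 0.08, limma adjusted p = 0.0098). *Prdm1*, the gene of the effector factor BLIMP1, read 3057, 3141, 3763 and 2944 against 687, 1021, 670 and 957 (log2 fold change 1.97, limma adjusted p = 0.018). *Pparg*, the fat tissue Treg factor PPARγ, read 473, 711, 187 and 515 in kTreg and 43.5, 7.26, 12.1 and 7.80 in aTreg cells. It varied between mice, but the groups did not overlap (log2 fold change 4.89, SE 0.67, limma adjusted p = 0.036). *Rora*, which encodes the nuclear receptor RORα, had a log2 fold change of 1.23 (limma adjusted p = 0.013), and *Maf*, a factor for IL-10 production, of 0.89 (limma adjusted p = 0.031). Of the other called genes of the programme, *Penk*, which encodes the opioid precursor proenkephalin, read 15481, 18192, 12543 and 11875 against 6417, 4194, 3446 and 2582 (log2 fold change 1.86, limma adjusted p = 0.018). *Icos*, a costimulatory receptor, was 1.96 times higher on the means, with values from 18545 to 22747 against 8649 to 12021 (log2 fold change 0.98, limma adjusted p = 0.018). *Ebi3*, a subunit of IL-35 and IL-27, had a log2 fold change of 1.10, *Itgae*, the integrin chain CD103 that binds E-cadherin, of 1.38, and *Tnfrsf9*, the costimulatory receptor 4-1BB, of 0.77.

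Receptors for cytokines and for cell contact gave calls in both directions. Among 37 cytokine receptor genes, 3 were called higher and none lower (9 and 5 without mouse 4), and their median was 0.07. They were *Il1rl1*, *Il9r* and *Il7r*. *Il9r*, the IL-9 receptor chain, read 1455, 1599, 1997 and 3139 in kTreg and 160, 301, 259 and 312 in aTreg cells, 7.94 times higher on the means (log2 fold change 2.96, limma adjusted p = 0.012). It also leads the list of markers of group 2 innate lymphoid cells. The summed level of that list, which includes *Il9r* itself, was 2434 to 3243 in kTreg and 1122 to 1786 in aTreg cells. The median log2 fold change of its 6 tested markers was −1.87 (−0.95 without mouse 4). None of the other 5 tested markers of that list was called. *Il7r*, the IL-7 receptor chain that usually marks resting T cells, lay between 7544 and 10127 in kTreg and between 4365 and 6222 in aTreg cells (log2 fold change 0.76, limma adjusted p = 0.027). Of 35 inhibitory and costimulatory receptors, 7 were called higher and 2 lower (16 and 6 without mouse 4), with a median of 0.35 (0.64 without mouse 4). The gate gene *Klrg1* is 1 of the 7, and its call was set by the sort. *Cd200r1*, an inhibitory receptor for CD200, read 5337, 4215, 5692 and 7248 in kTreg and 1425, 1129, 1250 and 1335 in aTreg cells (log2 fold change 2.11, SE 0.13, limma adjusted p = 0.0098). *Havcr2*, the gene of TIM-3, read 1348, 1072, 1243 and 778 against 90.2, 224, 144 and 159 (log2 fold change 2.88, limma adjusted p = 0.028). The groups of both genes lay apart. *Tnfrsf1b*, the TNF receptor TNFR2 that supports Treg cells, had a log2 fold change of 1.23 (limma adjusted p = 0.032), and *Ctla4*, which removes costimulatory ligands from antigen-presenting cells, of 0.87 (limma adjusted p = 0.021). In the other direction, *Cd160*, a receptor for HVEM, read 182, 178, 146 and 329 in kTreg and 1277, 801, 1232 and 922 in aTreg cells (log2 fold change −2.38, limma adjusted p = 0.033), and *Cd96*, which binds CD155, had a log2 fold change of −0.86 (limma adjusted p = 0.042).

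Receptors for chemokines changed in both directions. Of 22 receptors of migration tested, 7 were called higher and 3 lower, or 13 and 4 without mouse 4, and the median was 0.66 (0.91 without mouse 4). The highest fold belonged to *Ccr3*, the eotaxin receptor, which read 1581, 2808, 2026 and 879 in kTreg and 31.2, 50.8, 59.5 and 35.5 in aTreg cells (log2 fold change 5.26, SE 0.30, limma adjusted p = 0.0078). Each kTreg library exceeded each aTreg library by a wide margin. Basophils and mast cells, which can also carry *Ccr3*, had summed marker levels of 9.16 to 255 in kTreg and 186 to 803 in aTreg cells, with *Ms4a2* and *Prss34* at 0 in all 8 libraries. *Kit* led this list, with a mean of 176, and the 9.16 came from the uneven kTreg library of mouse 4. The part of other cells in the level of *Ccr3* was not tested. *Ccr10*, a receptor for skin and mucosal chemokines, read 1339, 551, 743 and 1524 against 42.3, 42.8, 53.1 and 99.6 (log2 fold change 4.08, limma adjusted p = 0.013). *Ccr2*, the receptor for CCL2, read 8844, 6347, 8612 and 8650 against 1415, 1311, 1897 and 2515 (log2 fold change 2.22, limma adjusted p = 0.012). Macrophages and monocytes also express *Ccr2*, and their summed markers were higher in kTreg than in aTreg cells in each mouse. Their part in the level of *Ccr2* was not tested. *Ccr1* read 429, 445 and 431 in the kTreg libraries of mice 1 to 3 and 1030 in mouse 4, against 59.5 to 159 in aTreg cells (log2 fold change 2.67, limma adjusted p = 0.044). *Ccr8*, a receptor of tissue Treg cells, was called through the pairing, since its groups overlapped (2909 to 8262 against 1834 to 3455, log2 fold change 1.15). *Ccrl2*, an atypical receptor that presents chemerin, had a log2 fold change of 1.59 and *Ptger4*, a receptor for prostaglandin E2, of 0.92.

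Receptors that guide T cells into the follicles and T zones of lymphoid organs were among those that fell. *Cxcr5*, the follicular receptor, read 462, 784, 373 and 324 in kTreg and 2810, 3949, 3371 and 3622 in aTreg cells, 7.08 times lower on the means (log2 fold change −2.90, limma adjusted p = 0.013). *Ccr7*, which directs cells to lymph nodes, read 2517, 2393, 1823 and 908 against 9337, 9136, 8971 and 9958 (log2 fold change −2.39, limma adjusted p = 0.028). Neither gene overlapped between the groups, and young rTreg cells averaged 18935 for *Ccr7*. *Cxcr6*, a receptor for CXCL16, lay between 2284 and 3851 in kTreg and between 3169 and 8120 in aTreg cells, lower in 4 of 4 mice although the ranges overlapped (log2 fold change −0.92, limma adjusted p = 0.043).

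Secreted and membrane-bound mediators were divided. Of 34 ligand genes, 5 were called higher and 4 lower (13 and 13 without mouse 4), with a median of −0.28. *Ccl20*, 1 of the 4, passed the filter through the aTreg libraries alone. *Fgl2*, a suppressive molecule of Treg cells, read 5730, 4848, 7754 and 3447 in kTreg and 726, 1176, 1252 and 1598 in aTreg cells (log2 fold change 2.19, limma adjusted p = 0.039). *Ccl5*, a T cell chemokine, read 1136, 1037, 2017 and 1095 against 662, 415, 621 and 357 (log2 fold change 1.35, limma adjusted p = 0.042). *Cxcl2*, which attracts neutrophils, was low in both groups, with 357, 121, 251 and 112 in kTreg and 53.5 or less in aTreg cells (log2 fold change 2.71, limma adjusted p = 0.043). The lower genes included *Ccl20*, the ligand of CCR6, with 5.23 in mouse 1 and 0 in the kTreg libraries of mice 2 to 4 against 78.0, 58.1, 95.7 and 98.7 in aTreg cells. Its kTreg level rested on a few reads, so no fold is given. *Tnfsf8*, the CD30 ligand, read 348, 397, 304 and 445 against 2616, 1778, 2019 and 2048 (log2 fold change −2.50, limma adjusted p = 0.013). *Lta*, which encodes lymphotoxin α, had a log2 fold change of −1.73 and *Tnfsf14*, the HVEM ligand LIGHT, of −1.59. Among 15 cytotoxic granule genes, 1 was called higher and 1 lower (4 and 2 without mouse 4), with a median of −0.33 (−0.20 without mouse 4). *Gzmb*, the gene of granzyme B, read 7816, 4275, 5519 and 6255 in kTreg and 463, 595, 638 and 799 in aTreg cells, and *Ctsw*, a protease of cytotoxic lymphocytes, read 1161, 1490, 1357 and 2165 against 4474, 4690, 4455 and 3887. Granzyme B rose 9.56 times on the means (log2 fold change 3.25, limma adjusted p = 0.012) while *Ctsw* fell (log2 fold change −1.54, limma adjusted p = 0.032). NK cell markers, which share the granule genes, summed to 946 to 2179 in kTreg and 1209 to 1418 in aTreg cells.

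S100 proteins, annexins, galectins and partners of the cytoskeleton gave calls in 1 direction too. Of 23 tested, 12 were called higher, against 1.77% of all genes, and none lower. Without mouse 4, 14 were called higher, against 8.26% of all genes, and none lower. The median of the group was 1.22 (1.13 without mouse 4). These calcium- and membrane-binding proteins are abundant in migrating and memory cells. *Lgals3*, the gene of galectin-3, read 2268, 2063, 2040 and 3066 in kTreg and 260, 265, 232 and 296 in aTreg cells. The groups were tight and apart, 8.97 times on the means (log2 fold change 3.15, SE 0.14, limma adjusted p = 0.0067). *S100a6* read 9866, 6430, 8783 and 14331 against 2303, 1445, 1993 and 1502 (log2 fold change 2.41, limma adjusted p = 0.018). *S100a4* read 10052, 5762, 8490 and 19381 against 2185, 1778, 2328 and 1562 (log2 fold change 2.35, limma adjusted p = 0.039). For both S100 genes mouse 4 was the highest kTreg library and mouse 2 the lowest. *Lgals1* (galectin-1, an immune suppressor) read 14012, 6964, 11106 and 21250 against 3380, 2570, 3111 and 2413 (log2 fold change 2.12, limma adjusted p = 0.033). *Anxa1*, which encodes the anti-inflammatory annexin A1, had a log2 fold change of 2.11, *Anxa2* of 1.31, *Anxa4* of 1.22 and *Anxa6* of 0.82. *S100a10*, the partner of annexin A2, had 1.40 and *S100a11* 1.42, *Vim*, the intermediate filament vimentin, 1.40 and *Crip1* 1.91. Macrophages also express many of these genes. The summed level of the group was 147214, 102215, 138164 and 184997 in kTreg and 56307 to 65067 in aTreg cells. Macrophage and monocyte markers also summed higher in kTreg than in aTreg cells in each mouse. The part of these cells in the group was not tested.

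Genes of mitosis and G2/M held the most calls of any list. With all mice, their share called was below that of the S100, effector and migration receptor lists. Of 50 tested, 19 were called higher in kTreg cells and none lower, 48 lay above 0, and for 35 the groups did not overlap. Over all genes, 1.77% were called higher, 41.1% lay above 0 and 7.58% had all kTreg libraries above all aTreg libraries. Without mouse 4, 48 were called higher and all 50 lay above 0, against 8.26% and 48.3% of all genes. The median log2 fold change was 1.69, or 1.90 without mouse 4. Without mouse 1, 2 or 3 the median lay between 1.52 and 1.75 and none of the list was called. *Kif11*, the spindle motor kinesin-5, read 2169, 1144, 1316 and 1558 in kTreg and 300, 126, 282 and 145 in aTreg cells (log2 fold change 2.92, SE 0.25, limma adjusted p = 0.015). *Kif23*, a kinesin of the central spindle needed for cytokinesis, read 1437, 807, 882 and 1838 against 215, 144, 201 and 181 (log2 fold change 2.67, limma adjusted p = 0.018). *Birc5*, the gene of survivin, read 2587, 988, 1492 and 2271 against 510, 179, 405 and 359 (log2 fold change 2.33, limma adjusted p = 0.013). In all 3 genes the lowest kTreg library was that of mouse 2, still above every aTreg library. *Cenpf*, a kinetochore protein, had a log2 fold change of 2.71, *Cdc25b*, a phosphatase that starts mitosis, of 2.15, *Mki67*, the proliferation marker Ki-67, of 1.96, *Ccnb2* (cyclin B2) of 1.89, *Ccna2* (cyclin A2) of 1.88, *Cdk1*, the mitotic kinase, of 1.84 and *Racgap1* of 1.68. The summed level of the list was 80571, 40810, 49463 and 49520 in kTreg and 19107, 14196, 16994 and 16591 in aTreg cells. Every kTreg library held more than 2 times the highest aTreg sum. In mouse 4 the list was uneven, with *Kif4*, *Nek2*, *Hmmr* and *Anln* at 0 in the kTreg library alone. The means of young rTreg cells lay between those of the 2 subsets for *Kif11* (512), *Birc5* (935) and *Mki67* (607). Their single libraries spread widely. *Birc5* (392 to 1441) and *Mki67* (236 to 1231) overlapped both subsets, and *Kif11* (210 to 1031) overlapped aTreg cells.

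**Figure D3:**
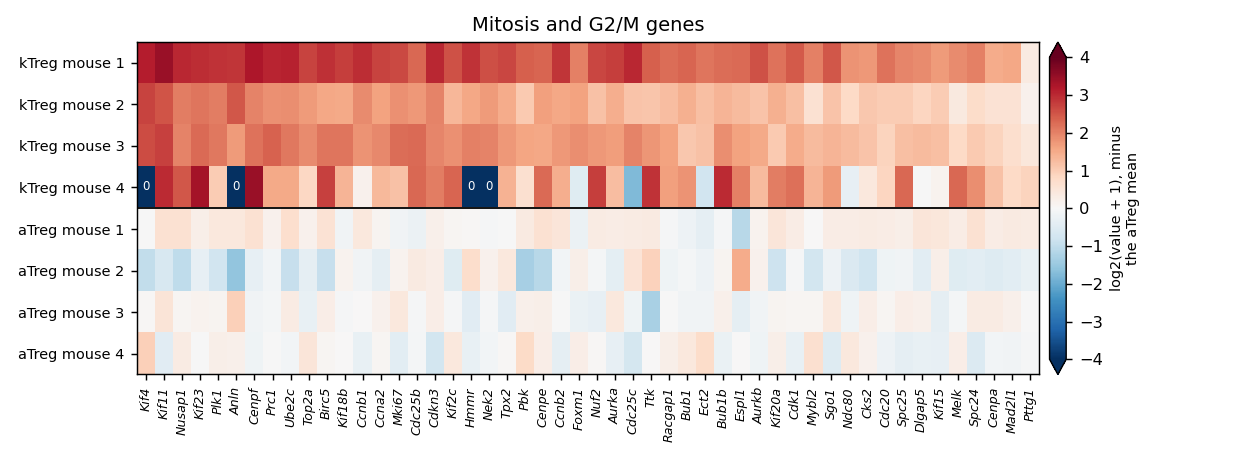
Heat map of the 50 mitosis and G2/M genes (columns) in the 4 kTreg and 4 aTreg libraries of young mice (rows), as log2(normalized read count + 1) minus the mean of the 4 aTreg libraries, with white at 0. The kTreg rows of mice 1 to 3 are red throughout, the kTreg row of mouse 4 is mixed, and cells marked 0 are the 4 genes without a read there.

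Promoters of these genes are known to carry the cell cycle homology element and CCAAT boxes, through which the DREAM and NF-Y complexes act. RefSeq promoters on GRCm38.p6, from 250 bases before to 50 after the start, were found for 41 of the 50 genes and for 9758 of the 14439 genes tested. Both strands were searched for TTTGAA, the core of the element, and for CCAAT. The core, TTTGAA, was present in 27 of the 41 (65.9%), against 14.6% of all tested genes with a promoter, and it was centred within 50 bases of the start in 24 (58.5%), against 3.96%. CCAAT was present in 30 (73.2%), against 42.9%, and both motifs in 23 (56.1%), against 5.88%. The motifs did not overlap in any of the 41. Of the 17 called genes with a promoter, 12 held TTTGAA (70.6%). For the 46 genes of S phase, of which 37 had a promoter, the share was 13.5%. A match describes the sequence and is not a site of binding. The 4 promoters below show the arrangement in called genes, 5′ to 3′ on the strand of the gene, from 150 bases before to 30 after the start, with both motifs, in either orientation, in capitals (TTCAAA reads TTTGAA on the other strand, as ATTGG does CCAAT). They lie at chr19:37376232-37376411 (plus strand, *Kif11*), chr9:61946770-61946949 (minus, *Kif23*), chr1:189688057-189688236 (minus, *Cenpf*) and chr9:70421525-70421704 (minus, *Ccnb2*).
Kif11: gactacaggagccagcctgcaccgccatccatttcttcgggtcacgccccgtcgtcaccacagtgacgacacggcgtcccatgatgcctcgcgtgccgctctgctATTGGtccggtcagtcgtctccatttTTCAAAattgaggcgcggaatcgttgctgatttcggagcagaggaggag
Kif23: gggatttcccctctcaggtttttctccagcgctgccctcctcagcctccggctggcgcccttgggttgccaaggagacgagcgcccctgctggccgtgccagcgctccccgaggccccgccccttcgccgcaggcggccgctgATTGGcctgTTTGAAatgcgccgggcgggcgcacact
Cenpf: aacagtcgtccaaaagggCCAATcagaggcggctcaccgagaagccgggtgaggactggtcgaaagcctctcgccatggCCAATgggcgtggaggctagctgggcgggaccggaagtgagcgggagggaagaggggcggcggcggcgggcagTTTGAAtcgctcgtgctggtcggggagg
Ccnb2: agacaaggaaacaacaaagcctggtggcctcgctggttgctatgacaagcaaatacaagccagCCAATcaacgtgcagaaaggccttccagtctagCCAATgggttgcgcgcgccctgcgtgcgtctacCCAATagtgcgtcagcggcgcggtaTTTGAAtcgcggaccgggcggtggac

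DNA replication and S phase genes gave fewer calls. Of 46 tested, 1 was called higher and none lower (17 and none without mouse 4), and the median was 0.23 (0.48 without mouse 4). The called gene was *Rrm2*, a subunit of ribonucleotide reductase, with 6252, 2931, 4096 and 3664 in kTreg and 1610, 1144, 1513 and 1616 in aTreg cells (log2 fold change 1.48, limma adjusted p = 0.021). Of 18 inhibitors of the cell cycle and pocket proteins, 3 were called higher and none lower (4 and none without mouse 4), with a median of 0.31. *Cdkn2c*, the CDK4 and CDK6 inhibitor p18, read 1725, 995, 1063 and 1604 against 548, 508, 490 and 554 (log2 fold change 1.32, limma adjusted p = 0.033). *Rbl2*, the pocket protein p130, which holds cells in quiescence, read 8288, 9005, 9156 and 8575 against 3265, 4870, 3640 and 5681 (log2 fold change 1.04, limma adjusted p = 0.042). Its kTreg values were the tighter of the 2 groups. *Gadd45b*, a stress sensor, had a log2 fold change of 0.78. Of 42 p53 target genes, 1 was called higher and none lower (8 and 3 without mouse 4), with a median of 0.20 (0.11 without mouse 4). With all mice this was near the share over all genes, 1.77% higher and 0.63% lower. The called gene was *Bcl2l1*, which encodes the survival protein BCL-XL, with 2741, 2696, 2926 and 3809 against 1692, 1618, 1792 and 1644 (log2 fold change 0.84, limma adjusted p = 0.044). Its relative *Bcl2*, another inhibitor of apoptosis, went the other way, with 690, 978, 545 and 786 in kTreg and 3977, 4148, 2757 and 2889 in aTreg cells (log2 fold change −2.21, SE 0.14, limma adjusted p = 0.011). The kTreg and aTreg libraries of both genes were separate, and young rTreg cells averaged 6198 for *Bcl2* and 1261 for *Bcl2l1*. They were the called members of the 18 BCL2 family genes tested (3 higher and 1 lower without mouse 4).

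Calls among genes of resting and stem-like T cells were mostly lower in kTreg cells. Of 24 tested, 8 were called lower and 1 higher (13 and 3 without mouse 4), and the median was −1.08, or −0.70 without mouse 4. The higher gene was *Il7r*. *Tcf7*, the gene of the stemness factor TCF-1, read 3791, 3668, 2917 and 3171 in kTreg and 13583, 15329, 13123 and 15191 in aTreg cells. All kTreg libraries were far below all aTreg libraries (log2 fold change −2.08, SE 0.10, limma adjusted p = 0.0067), and young rTreg cells averaged 16350. *Id3*, an inhibitor of E proteins that holds back effector differentiation, read 998, 1063, 1430 and 1729 against 4221, 3905, 4934 and 3966 (log2 fold change −1.74, limma adjusted p = 0.018). *Evl*, an actin regulator of the Ena/VASP family, read 1276, 1701, 1534 and 1803 against 4652, 5226, 5697 and 6572 (log2 fold change −1.81, limma adjusted p = 0.0067). *Ssbp2*, a cofactor of LIM domain complexes, had a log2 fold change of −2.07, *Ly6c1*, a surface antigen, of −1.19 and *Foxp1*, a factor of quiescence, of −1.10. *Ccr7* and *Bcl2*, given above, were the other 2. In none of the 8 did the groups overlap. All kTreg libraries lay below all aTreg libraries for 14 of the 24, against 8.56% of all genes. Of 23 genes of Treg identity, 2 were called higher and 2 lower (5 and 6 without mouse 4), with a median of 0.03 (−0.02 without mouse 4). The lower ones were *Gpr83*, a G protein-coupled receptor of Treg cells, which read 433, 534, 739 and 305 against 4466, 4855, 4178 and 5241 (log2 fold change −3.29, limma adjusted p = 0.013), and *Izumo1r*, the folate receptor 4, with a log2 fold change of −0.95 (limma adjusted p = 0.038). *Gpr83* was 9.32 times lower on the means. *Ctla4* and *Capg*, an actin-capping protein (log2 fold change 0.75), were the higher ones.

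Outside the lists, the genes with the smallest p included *Gna15*, a G protein subunit of blood cells, with 2177, 1834, 2509 and 2326 in kTreg and 441, 414, 527 and 500 in aTreg cells (log2 fold change 2.23, SE 0.12, limma adjusted p = 0.0067). *Lmna*, the nuclear lamin A/C, read 2563, 1532, 2283 and 3306 against 264, 314, 266 and 397 (log2 fold change 2.93, limma adjusted p = 0.012). *Frmd5* read 721, 951, 968 and 1023 against 42.3, 83.1, 54.7 and 46.8 (log2 fold change 4.03, limma adjusted p = 0.012). In each of these the ranges were far apart. *Neb*, the muscle filament protein nebulin, had a log2 fold change of 2.32 (limma adjusted p = 0.011). Of the lower genes, *Gpr18*, a receptor for lipid ligands, read 728, 765, 697 and 820 in kTreg and 2813, 2946, 2850 and 3180 in aTreg cells (log2 fold change −1.97, SE 0.10, limma adjusted p = 0.0067). *Igf2r*, the mannose 6-phosphate receptor that carries enzymes to lysosomes, read 791, 1109, 1055 and 1041 against 3357, 4385, 3343 and 3693 (log2 fold change −1.89, limma adjusted p = 0.0098). The spread within both groups was small beside the gap. *Tgtp1*, an interferon-inducible GTPase whose near-identical copy *Tgtp2* can share its reads, had a log2 fold change of −1.35, *Dennd2d* of −1.68 and *Lrig1*, a brake on growth factor receptors, of −1.14.

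Other large folds belonged to genes near the floor in 1 subset. *Btnl5-ps*, *Plekhh3*, *Adamtsl2* and *Wnt10a* passed the filter only through the subset in which they were high, so their values are given without a test. *Btnl5-ps*, a butyrophilin-like pseudogene, read 98.1, 92.8, 143 and 291 in kTreg cells and was at 0 in all 4 aTreg libraries, at least 58.0-fold higher against a floor of 3 reads per library. Reads of its relatives could be assigned to it, so its level is uncertain. *Plekhh3* read 139, 80.3, 147 and 239 against 4.46, 0, 2.41 and 0.866. In the other direction *Adamtsl2*, a matrix protein, was at 0 in all 4 kTreg libraries and read 15.6, 60.5, 59.5 and 32.1 in aTreg cells, at least 13.2-fold lower against the same floor. *Serpina9*, a serpin of germinal centre B cells, read 3.92, 12.4, 0 and 0 in kTreg and 207, 148, 172 and 122 in aTreg cells. *Wnt10a*, a WNT ligand, read 6.54, 2.87, 3.14 and 0 against 96.9, 91.9, 172 and 140. All 3 were present in each aTreg library and at or near 0 in kTreg cells. *Kcnk1*, a potassium channel, read 24.9 in mouse 2 and 0 in the other kTreg libraries, against 73.5, 543, 102 and 94.4, and its highest value in each subset came from mouse 2. It too passed the filter through the aTreg libraries, so no test is given.

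Genes of mitochondrial energy production were not called in young mice. Of 49 genes of complex I and its assembly none was called (3 lower without mouse 4), and the median was −0.09 (−0.25 without mouse 4). Below 0 lay 36 of the 49, or 45 without mouse 4. Of 46 genes of complexes II to V none was called (1 lower without mouse 4), and the median was 0.01, or −0.18 without mouse 4. Below 0 lay 23 of the 46, or 39 without mouse 4. Over all genes, 48.3% lay above 0 without mouse 4. Of 12 mitochondrially encoded genes none was called with or without mouse 4, with a median of −0.03 (0.01 without mouse 4) and 6 genes on each side of 0. The medians for complex I within a mouse were below 0 in mice 1 to 3 and above 0 in mouse 4. Of 78 mitochondrial ribosomal protein genes none was called (8 lower without mouse 4), 65 lay below 0 (75 without mouse 4), and the median was −0.23 (−0.31 without mouse 4). All kTreg libraries lay below all aTreg libraries for 18 of the 78, against 8.56% of all genes. The calls for cytosolic ribosomal protein genes, which build the translation machinery, depended on mouse 4. None of 81 was called, with a median of −0.41, and 46 were called lower without mouse 4, with a median of −0.63. With all mice, 76 of these genes lay below 0, and for 12 all kTreg libraries lay below all aTreg libraries. Their summed level was 247489, 206895 and 226506 in the kTreg libraries of mice 1 to 3 and 398403, 279772 and 367314 in the aTreg libraries, lower in kTreg cells in all 3. In mouse 4 it was higher in kTreg (345278) than in aTreg cells (295716).

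**Figure D4:**
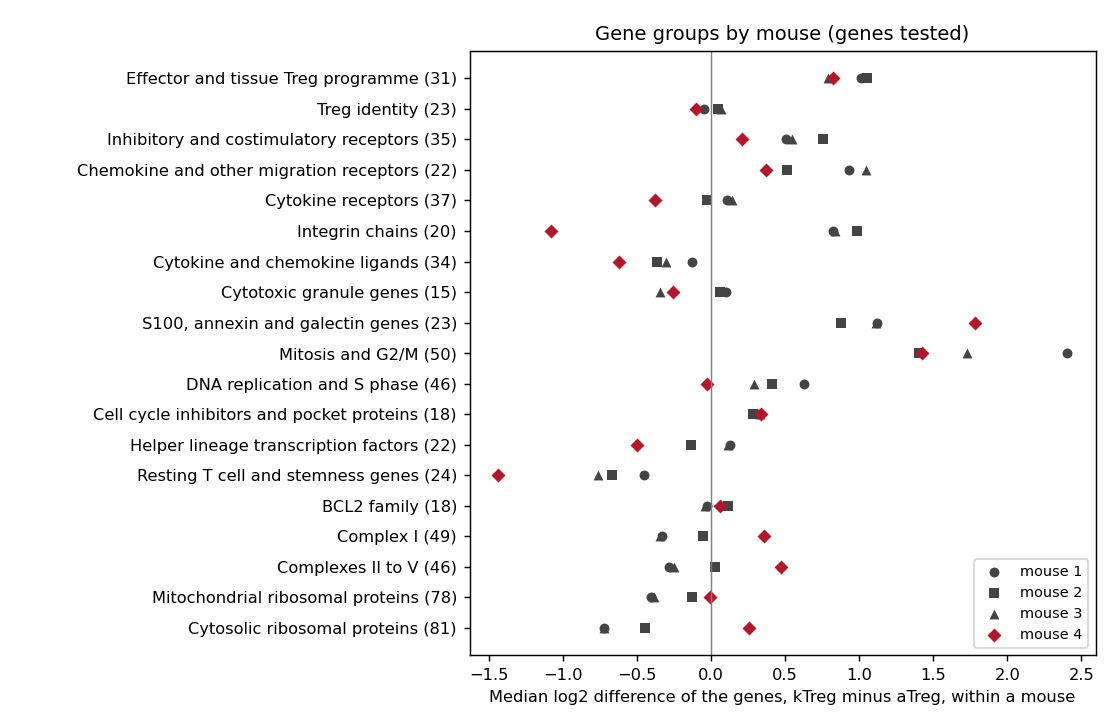
Median log2 difference, kTreg minus aTreg, of the tested genes of 19 lists (number of genes in brackets) within each of the 4 young mice, with mouse 4 in red and a line at 0. The effector, S100 and mitosis lists lie above 0 and the resting list below 0 in all 4 mice, and for complex I and cytosolic ribosomal proteins mouse 4 lies on the other side of 0 from mice 1 to 3.

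Other programmes had few called genes each, set against 2.4% of all genes (14.7% without mouse 4). With all mice, the share called in the integrin, helper lineage, immediate early, interferon and glycolysis lists lay above that 2.4%. These shares rested on 1 to 4 called genes in a list. Without mouse 4, the interferon and glycolysis shares lay below the 14.7%. Of 20 integrin chains 1, *Itgae*, was called higher and none lower, but 10 were higher and 1 lower without mouse 4, and the median moved from 0.47 to 0.87. Of 22 transcription factors of helper lineages, *Gata3* and *Rora* were called higher and none lower (4 and 4 without mouse 4), and the median of −0.11 was 0.01 without mouse 4. Of 26 immediate early genes of T cell receptor signalling, 3 were called higher and none lower (4 and 3 without mouse 4), with a median of 0.12 (0.06 without mouse 4). Of 42 interferon-stimulated genes, 2 were called higher and 2 lower (4 and 2 without mouse 4), with a median of 0.01 (0.13 without mouse 4). Of 24 genes of glycolysis and lactate handling, 1 was called higher and none lower (1 and 2 without mouse 4), with a median of −0.12 (−0.05 without mouse 4). Of the marker lists of other cells, macrophage and monocyte markers had 9 tested genes, none called, and 8 called higher without mouse 4, with a median of 2.57 (3.66 without mouse 4). Dendritic cell markers had 5 tested genes, none called, and 1 higher without mouse 4. Of the other lists of cell types, 1 gene was called, *Il9r*. Without mouse 4, 1 of 8 NK cell markers was higher and 3 lower, 2 of 6 markers of group 2 innate lymphoid cells were higher and 2 lower, 1 of 4 erythroid markers was higher, and 1 of 4 plasma cell and 1 of 3 basophil and mast cell markers were lower. No B cell, neutrophil, CD8 T cell or platelet marker was called in either fit.

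The same comparison in old mice was set beside that in young mice. In 15931 genes tested over both ages, no gene had a called difference between young and old mice (0.0% in limma), with 1438 at an unadjusted p below 0.05 and the fold threshold, 1 called by edgeR and 327 by DESeq2. The smallest adjusted p was 0.051, that of *Igf2r*, which edgeR called. Without young mouse 4, limma called 167 genes, 115 with a more positive difference in young mice (0.722%) and 52 with a more negative one (0.326%). The genes named here for this difference were chosen after their values were seen. *Igf2r* fell in young mice, as given above, but lay between 1251 and 1613 in old kTreg and between 819 and 1738 in old aTreg cells. Its log2 fold change was −1.89 in young and 0.12 in old mice, a difference of −2.01 (standard error 0.20). *Ccr2* ranged from 4069 to 6690 in old kTreg and from 2651 to 7233 in old aTreg cells, so the old groups overlapped where the young groups did not. Its difference between the ages was 2.09 (limma adjusted p = 0.064), or 2.24 without young mouse 4 (limma adjusted p = 0.0038). *Icos* and *Rora* behaved alike, with old log2 fold changes of 0.14 and 0.09 and differences of 0.90 and 1.11 without young mouse 4 (limma adjusted p = 0.011 and 0.017). For *Rora* the old aTreg libraries were at 3948 to 5303, above the 1951 to 2337 of young aTreg cells. *Il7r*, higher in kTreg cells of young mice, had an old log2 fold change of −0.34 (difference 1.15 without young mouse 4, limma adjusted p = 0.028). *Evl* and *Id3* were lower in kTreg cells by more in young than in old mice (differences of −1.06 and −1.11 without young mouse 4, limma adjusted p = 0.021 and 0.024).

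Most members of the mitosis and S100 groups had the higher log2 fold change in young mice, with called differences only without young mouse 4. Over all genes, 41.1% had the higher log2 fold change in young mice. Of the 50 mitosis and G2/M genes, 46 had a higher log2 fold change in young than in old mice, and the old median was 0.64. Without young mouse 4, 13 of the 50 had a called difference, all more positive in young mice, the median difference was 1.20, against −0.02 over all genes, and all 50 lay above 0. With all young mice none was called and the median difference was 1.15, against −0.13. *Kif11* lay between 400 and 828 in old kTreg and between 311 and 360 in old aTreg cells (difference 1.89 without young mouse 4, limma adjusted p = 0.021). *Kif23* lay between 348 and 425 in old kTreg and between 197 and 332 in old aTreg cells (difference 1.81 without young mouse 4, limma adjusted p = 0.012). Of the 23 S100, annexin and galectin genes, 20 had a higher log2 fold change in young mice (21 without young mouse 4), the old median was 0.05, and 5 had a called difference without young mouse 4 (none with it), with a median difference of 0.94 (1.25 with it). *S100a6* lay between 5439 and 7850 in old kTreg and between 5483 and 27804 in old aTreg cells, and the old ranges overlapped (difference 2.70 without young mouse 4, limma adjusted p = 0.021). By contrast *Il1rl1* had nearly the same log2 fold change at both ages, 4.58 in young mice against 4.57 in old, a difference of 0.02 (standard error 0.30).

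**Figure D5:**
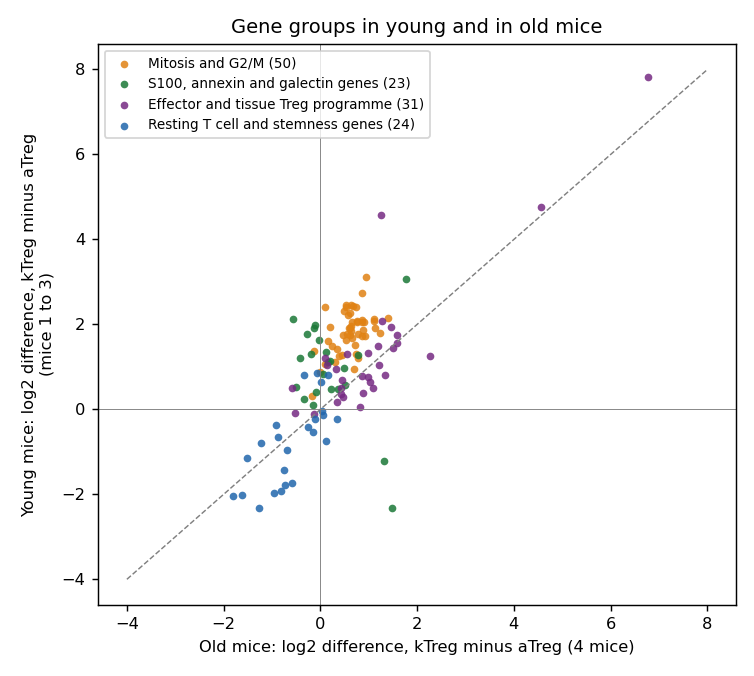
Each point is a tested gene of 1 of 4 lists, with the log2 difference, kTreg minus aTreg, in old mice (x axis, 4 mice) and in young mice (y axis, mice 1 to 3), and a dashed line where both are equal. Mitosis and G2/M genes (orange) lie above the line for all 50 genes, and *Klrg1* and *Il1rl1* are the 2 points at the upper right.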

How the data were processed

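The authors built libraries from SMART-Seq v4 cDNA for paired-end sequencing and, per the labels, used HISAT2 2.2.1 on GRCm39, SAMtools 1.13, HTSeq 1.99.2 and DESeq2 1.44.0. The deposited values are a normalized signal, the reads of a gene divided by a size factor per library, for genes with at least 100 reads over the 24 libraries. The annotation and strand setting are not given in the sources used here. In the 8 libraries 100% of values came out as whole reads (tolerance 0.001 reads), and the recovered reads served edgeR 4.0.16 and DESeq2 1.42.0. PCR copies are not independent molecules, so the spread between mice was the error. GENCODE M39 named 17353 of 17464 identifiers, and 0 columns were left over.

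Values of the 8 libraries were taken as log2(value + 1) and fitted with limma 3.58.1 (R 4.3.3, trended variance) with the mouse as a term, which understates the change of low genes. A call needed more than a 1.5-fold change and, two-sided, an adjusted p (Benjamini-Hochberg) under 0.05. The pairing was taken from the sample numbers and the series' design (all subsets from 4 mice of each age), which do not say outright that a number is 1 mouse. Deviations from the group means correlated at 0.121, 0.277, 0.065 and 0.055 within mice 1 to 4. The difference between ages was a contrast over 16 libraries with the mouse as a term. Fits were also run on simulated data with known changes. The simulated spread between libraries was estimated without mouse 4, so the simulation does not cover the uneven kTreg library of mouse 4.

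Named genes are the sort genes reported here, the 12 with the smallest p and the 5 with the largest fold in each direction among genes called and alike in 4 of 4 mice (clone names, receptor segments and Y-linked genes excluded), and members of the lists. The members and lists were chosen with earlier results of these data known. The filter's edge held 613 genes at 10 or more in exactly 4 libraries (median mean value 12.7) and 674, not tested, in exactly 3 (9.55). It let in 23 genes through the 4 kTreg libraries alone and 57 through the 4 aTreg libraries alone. Alternatives changed the pseudocount, filter, block, libraries, scaling, tool and threshold and left out each mouse. Y-linked genes and some others were not analysed here. Summaries and plots used matplotlib 3.10.9, scipy 1.17.1, pandas 2.3.3 and numpy 2.4.6 in Python 3.11.15.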

Additional observations from a re-analysis of the deposited data

Results flagged for a closer look

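In groups of 4 libraries, 220 were checked for a sample far from the other 3, and 22 held one. Chance gives about 1 in 20. In the kTreg libraries, mouse 4 was high for *Ccr1* (1030, others 429 to 445) and for genes listed at 0 (4913, others 642 to 1192). Mouse 2 was low for *Ccr2* (6347, others 8612 to 8844), *Anxa6* (18465, others 22602 to 23419) and *Cdc25b* (3771, others 5425 to 5600). It was high for *Kcnk1* (24.9, others 0) and for the summed markers of macrophages and monocytes (33650, others 412 to 1266), neutrophils (1641, others 36.6 to 143) and dendritic cells (47797, others 10379 to 12139). Mouse 3 was high for *Ccl5* (2017, others 1037 to 1136), and mouse 1 for *Ccnb2* (2802, others 1057 to 1300) and *Ccl20* (5.2, others 0).

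In the aTreg libraries, mouse 1 was high for *Klrg1* (177, others 106 to 109), *Pparg* (43.4, others 7.3 to 12.1) and *Cenpf* (140, others 72.6 to 82.0), and low in reads on listed genes (17336454, others 22598445 to 23642676). Mouse 2 was low for *Ccna2* (444, others 607 to 639) and high for *Kcnk1* (543, others 73.5 to 102). The summed markers of macrophages and monocytes (3291, others 94.4 to 257), dendritic cells (40492, others 3646 to 5261), basophils and mast cells (803, others 186 to 255) and CD8 T cells (1115, others 339 to 414) were also highest in mouse 2.

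For 2 genes every young mouse went one way and every old mouse the other. *Il2ra* had a log2 fold change of −0.37 in young and 0.45 in old mice, and the difference was not called (adjusted p = 0.28, limma). *Anxa2* had a log2 fold change of 1.31 in young and −0.42 in old mice (adjusted p of the difference 0.089, or 0.018 without young mouse 4, limma).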

How the results depend on the processing

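The 91 called genes named kept their direction in every alternative that tested them, and 65 to 91 of them stayed called, except without mouse 1, 2 or 3, where 1, *Klrg1*, did. The counts of genes higher and lower in kTreg cells (256 and 91) ranged from 1 to 1192 and from 0 to 929 when 1 mouse was left out. With no replicate block they were 429 and 204, with all 24 libraries and the replicate block 628 and 595, and with all 24 and no block 584 and 554. DESeq2 called 747 and 470, and an unadjusted p with the fold threshold 910 and 839. The lower genes alone moved past 1.5 times with a pseudocount of 5 (152), no filter (57) and edgeR (45). Chosen after seeing the data, limma's array weights, which gave mouse 4 a weight of 0.115 and the others 1.01 to 3.14, called 1281 and 1174 genes, and all 24 libraries with the block less young mouse 4 called 703 and 478. Fewer libraries enter every fit that leaves a mouse out, also the fit without mouse 4, which called 1192 and 929 genes. The causes of these changes were not tested. Among the genes named, direction changed only for *Cd4*, which was not called in any of these fits. Its log2 fold change (−0.04) was at 0.15 with array weights, at 0.13 with all 24 libraries less young mouse 4 and at −0.16 to 0.13 when 1 mouse was left out, above 0 without mouse 4. The count of genes that differed between the ages (0) was 1 with a pseudocount of 5, a filter of 50, TMM scaling or edgeR, 16 with no replicate block, 32 and 26 with all 24 libraries with and without the block, 327 with DESeq2, 1438 with an unadjusted p, 599 with array weights, and 0 to 167 when 1 mouse was left out. It was 167 without young mouse 4 and 1 without old mouse 2. Reads of 15502851 to 23642676 per library limit genes near 10 units, and the 4913 genes at 0 in the kTreg library of mouse 4 are not shown to be unexpressed.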
